A study of Homo sapiens with 4 samples.

Results

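Heat shock proteins are chaperones that bind unfolded or newly made proteins, keep them from clumping and help them fold. In the cytosol, HSP70 proteins work with J-domain partners that deliver clients and with exchange factors that release them, and HSP90 completes the folding of many kinases and receptors; in mitochondria, HSPD1 and HSPE1 together form a folding chamber. Some forms are made at all times, whereas others are switched on by heat shock factor, chiefly HSF1, when proteins are damaged, and formaldehyde is a small aldehyde that reacts with protein and DNA. The genes described here are 10 heat shock protein genes chosen by name, of 23004 gene names listed. They are HSPA1A, HSPA1B, DNAJB1, HSPH1, BAG3, HSPB1 and HSP90AA1, which are known to be induced by heat, the constitutive HSPA8, and the mitochondrial HSPD1 and HSPE1. All 10 were found and all 10 were tested.

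RNA was sequenced from BEAS-2B, an immortalized line of human bronchial epithelium, in 2 libraries of cells treated with 100 µM formaldehyde for 48 h and 2 libraries of untreated cells. The treatment label gives the dose and the time without the compound, which is named in the series title. The labels give no genotype beyond the line itself and do not say whether replicates came from separate cultures, so the tests rest on differences between libraries that may be technical repeats. A level is given in FPKM, fragments per kilobase of transcript per M mapped fragments (M, mega), as deposited by the authors, with the transcripts of a gene added up. The values in each sentence belong to replicate 1 and then replicate 2 of a group.

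The formaldehyde libraries held 14.2 and 22.2 M fragments and the untreated libraries 16.8 and 26.5 M, worked out from the coverage deposited beside FPKM. For HSPA1A, HSPA1B, DNAJB1, HSPB1, HSPH1 and BAG3, 1211 to 10388 fragments lay behind a value, a 95% counting error of 1.96% to 5.75%. These 6 members have 1 transcript on the standard chromosomes and do not overlap another member in position. The error covers counting only. It takes the split between HSPA1A and HSPA1B, which share most of their sequence, as the authors' software made it. Further entries of these 2 genes on chromosome 6 haplotypes were at 0 FPKM. The summed level of 10 bronchial epithelial markers was 1401 and 1205 FPKM with formaldehyde and 736 and 824 FPKM untreated. The keratins KRT7, KRT8 and KRT18 made up most of it and were higher in both formaldehyde libraries, whereas KRT17 had 61.2 and 48.0 FPKM with formaldehyde and 26.4 and 178 FPKM untreated. KRT14 had 0.802 and 1.08 FPKM with formaldehyde and 0.222 and 4.66 FPKM untreated. EPCAM had 2.69 and 3.18 FPKM with formaldehyde and 0.983 and 2.77 FPKM untreated. CDH1 and KRT19 were under 1 FPKM, and KRT5 and TP63 were listed at 0 in all 4 libraries. The leukocyte markers CD3E and TYROBP were also listed at 0 throughout, and the list of 10 summed to 52.2 and 32.9 FPKM with formaldehyde and 18.4 and 31.4 FPKM untreated, chiefly CD68, with 42.8 and 22.04 FPKM with formaldehyde and 12.8 and 16.4 FPKM untreated. Fibroblast and endothelial markers summed to 1188 and 1063 FPKM with formaldehyde and 1083 and 1241 FPKM untreated, within which VIM had 1043 and 786 FPKM with formaldehyde and 782 and 642 FPKM untreated and the collagen COL1A1 had 137 and 254 FPKM with formaldehyde and 279 and 568 FPKM untreated. In bulk RNA, fewer cells of a type and less RNA per cell cannot be told apart. Untreated replicate 2 was the lowest of the 4 libraries for 40.8% of the 12407 genes tested and the highest for 22.7%. Such shares were not worked out for the other libraries. Over these genes, log2(FPKM + 1) correlated at 0.917 and 0.923 between same-numbered libraries, at 0.910 within formaldehyde and at 0.903 within untreated. Formaldehyde replicate 1 with untreated replicate 2 gave 0.878, and formaldehyde replicate 2 with untreated replicate 1 gave 0.914.

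No member passed the test in either direction. The HSP70 genes HSPA1A and HSPA1B and the J-domain gene DNAJB1 had lower mean levels with formaldehyde, HSPD1, HSPE1, HSP90AA1 and HSPH1 had higher means, and BAG3 and HSPA8 had nearly equal means. With limma on log2(FPKM + 1) and Benjamini-Hochberg adjustment over 12407 genes at a threshold of 0.05, 0 of 10 members were called higher and 0 lower, against 0.0806% and 0.0725% of all genes tested. At an unadjusted p under 0.05, limma also gave 0 of 10 members, against 1.93% of all genes higher and 0.838% lower. Every member had an adjusted p of 0.9999 in limma. The 95% intervals were wide: a 2-fold decrease lay inside those of HSPA1A and HSPA1B, and a 2-fold increase inside those of HSPH1, HSP90AA1, HSPD1 and HSPE1. With 2 libraries a group, an exact permutation test cannot go below p = 0.333.

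The sequences in front of these genes are given first, because heat shock factor is known to bind inverted repeats of the unit nGAAn there. The stretches below are from RefSeq, build GRCh38.p14, written in the direction of transcription, with bases numbered back from the annotated start and capitals marking each match to the motifs searched. The 2-unit motifs were GAANNTTC and TTCNNGAA, each its own reverse complement, and a 3-unit motif was GAANNTTC followed by NNGAA or TTCNNGAA followed by NNTTC, which are reverse complements of each other, so both strands were covered and each 3-unit match holds 2-unit matches inside it. HSPA1A and HSPA1B are shown because they are near-identical copies, and the others because they hold the longest runs of units or, in DNAJB1, a pair of matches before the second of its RefSeq starts in the table. A further DNAJB1 match lies at bases 2 to 9 from its first start and is not shown. HSPA8 also holds another 3-unit match, at bases -230 to -218, which is not shown.
HSPA1A, chr6:31815353-31815512, + strand: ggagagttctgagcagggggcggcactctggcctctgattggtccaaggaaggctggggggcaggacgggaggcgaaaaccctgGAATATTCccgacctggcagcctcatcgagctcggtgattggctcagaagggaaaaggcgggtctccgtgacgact
HSPA1B, chr6:31827548-31827707, + strand: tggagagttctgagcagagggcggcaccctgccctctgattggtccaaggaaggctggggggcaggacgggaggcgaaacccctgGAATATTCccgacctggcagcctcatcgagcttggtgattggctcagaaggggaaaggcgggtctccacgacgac
DNAJB1, chr19:14518428-14518487, - strand: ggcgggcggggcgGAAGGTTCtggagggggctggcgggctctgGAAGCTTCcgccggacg
HSP90AA1, chr14:102087075-102087144, - strand: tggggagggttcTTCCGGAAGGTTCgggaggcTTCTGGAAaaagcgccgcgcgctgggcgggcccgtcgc
HSPA8, chr11:123062167-123062216, - strand: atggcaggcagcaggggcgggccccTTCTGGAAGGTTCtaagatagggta
HSPD1, chr2:197500061-197500090, - strand: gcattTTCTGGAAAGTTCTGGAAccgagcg

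In windows of 250 bases before to 50 after each start, a 2-unit match was held by 7 of 10 members (70.0%), against 16.18% of the 27305 genes with a window. A 3-unit match was held by 3 members, HSP90AA1, HSPA8 and HSPD1 (30.0%), against 0.61% of genes. The windows of HSPH1, BAG3 and HSPE1 held neither motif, which says only that these letters are not in those windows. In HSPA1A the match GAATATTC lay at bases -106 to -99 and in HSPA1B at -105 to -98, and their aligned windows were 92.0% identical. HSPB1 held GAAGGTTC at bases -182 to -175, and in HSPD1 the run of units lay at bases -245 to -228. HSPD1 and HSPE1 are transcribed in opposite directions from neighbouring starts. In RefSeq, that run lies between the HSPD1 start it is numbered from (GRCh38 chr2:197499840) and the HSPE1 start (chr2:197500379). The run is downstream of a second RefSeq start of HSPD1, whose window holds no match. In the hg19 annotation behind the FPKM, the main HSPD1 transcript and HSPE1 start 80 bases apart, closer than these RefSeq starts. The HSPE1 window may therefore not cover the start whose level was measured. A match is a description of the letters and not of binding.

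The stress-inducible HSP70 protein is encoded by HSPA1A (hg19 chr6:31783291-31785719, + strand) and HSPA1B (hg19 chr6:31795512-31798031, + strand). HSPA1A had 97.5 and 82.6 FPKM with formaldehyde and 98.3 and 155 FPKM untreated. The groups did not overlap, but formaldehyde replicate 1 and untreated replicate 1 were nearly equal, and untreated replicate 2 was high. The mean was 90.1 ± 10.6 FPKM with formaldehyde and 127 ± 40.1 FPKM untreated (SD, n = 2 each), a ratio of 0.711. The log2 fold change, on the log2(FPKM + 1) scale used throughout, was -0.46 ± 0.30 (SE in limma, 95% interval -1.22 to 0.31), and it was -0.13 without untreated replicate 2.

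HSPA1B had 92.1 and 75.2 FPKM with formaldehyde and 91.3 and 144 FPKM untreated. Its groups overlapped by the narrow margin between the replicate 1 libraries, and untreated replicate 2 was again the high library. The means of 83.6 ± 11.9 FPKM with formaldehyde and 118 ± 37.4 FPKM untreated (SD, n = 2 each) gave a log2 fold change of -0.46 ± 0.30 (SE, 95% interval -1.23 to 0.32), which was -0.13 without untreated replicate 2. Reads cannot place these 2 genes apart with certainty: in GENCODE v29, 72.5% of the 51-nt words of the HSPA1A transcript, the length of a read here, also occur in HSPA1B. The ratio of HSPA1A to HSPA1B was 1.06 and 1.10 with formaldehyde and 1.08 and 1.07 untreated, and the genes are not independent of each other as measurements. HSPA6, a strictly inducible HSP70 gene named after its values were seen, stood at 0.311 and 0.110 FPKM with formaldehyde and 0.0608 and 0.131 FPKM untreated, below the minimum mean of 1 FPKM for testing.

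**Figure D1:**
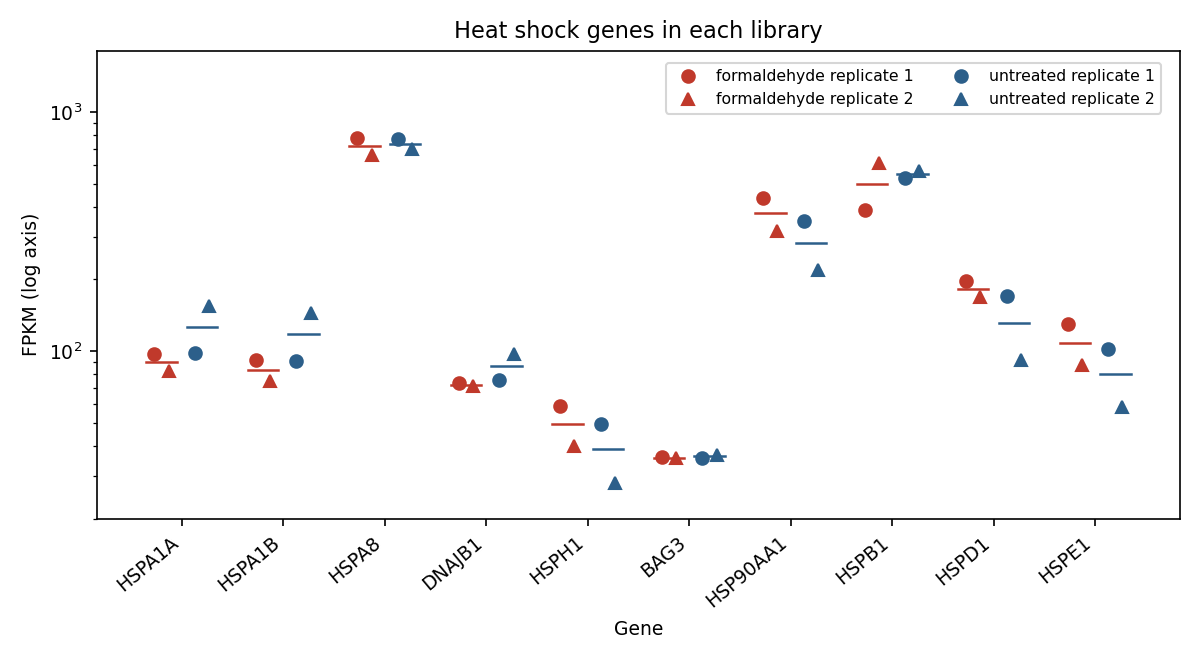
FPKM of the 10 heat shock protein genes in each library, with formaldehyde libraries left of untreated libraries points for single libraries and short lines for group means, on a log axis. Untreated replicate 2 is the highest library for HSPA1A, at 155 FPKM, and the lowest for HSPD1, at 92.1 FPKM.

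DNAJB1 (hg19 chr19:14625582-14629201, - strand), the J-domain protein that hands clients to HSP70, had 73.6 and 71.3 FPKM with formaldehyde and 75.5 and 97.3 FPKM untreated. The groups did not overlap, with a gap of a few FPKM between the replicate 1 libraries and untreated replicate 2 the highest. Means were 72.5 ± 1.57 FPKM with formaldehyde and 86.4 ± 15.4 FPKM untreated (SD, n = 2 each), and the log2 fold change was -0.24 ± 0.22 (SE, 95% interval -0.82 to 0.34). It was -0.06 without untreated replicate 2. HSPA1A and DNAJB1 were the 2 of 10 members with both formaldehyde libraries below both untreated libraries, against 10.7% of all genes tested, and 0 of 10 lay above, against 16.2%.

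Exchange factors release the client from HSP70. HSPH1 (hg19 chr13:31710763-31736117, - strand), an HSP110 protein that acts in this way, had 59.0 and 40.2 FPKM with formaldehyde and 49.7 and 28.2 FPKM untreated. Each formaldehyde library was above its same-numbered untreated library, yet the groups overlapped because both replicate 2 libraries were lower than both replicate 1 libraries. The log2 fold change of 0.37 ± 0.36 (SE, 95% interval -0.55 to 1.30) turned to -0.03 without untreated replicate 2. BAG3 (hg19 chr10:121410882-121437329, + strand), an exchange factor that also routes clients to autophagy, had 36.0 and 35.8 FPKM with formaldehyde and 35.9 and 36.8 FPKM untreated. Its 4 values lay closer together than those of any other member, and its log2 fold change of -0.02 had a 95% interval of -0.49 to 0.46.

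HSPA8 (hg19 chr11:122928200-122932901, - strand), the constitutive HSP70, was the most abundant member. It had 779 and 662 FPKM with formaldehyde and 767 and 697 FPKM untreated. The groups overlapped, with both replicate 1 libraries above both replicate 2 libraries. The means of 721 ± 82.5 FPKM with formaldehyde and 732 ± 49.0 FPKM untreated (SD, n = 2 each) gave a log2 fold change of -0.03, with a 95% interval of -0.70 to 0.65, which became 0.09 without formaldehyde replicate 2 and 0.04 without untreated replicate 1.

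HSPB1 (hg19 chr7:75931875-75933614, + strand), a small heat shock protein that holds unfolded proteins without ATP, had 390 and 610 FPKM with formaldehyde and 530 and 566 FPKM untreated. The formaldehyde libraries were the lowest and the highest of the 4, and both untreated libraries lay between them. Means were 500 ± 156 FPKM with formaldehyde and 548 ± 26.0 FPKM untreated (SD, n = 2 each). The log2 fold change was -0.17 ± 0.31 (SE, 95% interval -0.98 to 0.64) and turned to 0.16 without formaldehyde replicate 1.

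HSP90AA1 (hg19 chr14:102547075-102606086, - strand), the heat-inducible cytosolic HSP90, had 438 and 316 FPKM with formaldehyde and 349 and 218 FPKM untreated. Each formaldehyde library was above its same-numbered untreated library, but formaldehyde replicate 2 lay below untreated replicate 1. Means were 377 ± 86.3 FPKM with formaldehyde and 284 ± 92.8 FPKM untreated (SD, n = 2 each), a ratio of 1.33, and the log2 fold change was 0.43 ± 0.34 (SE, 95% interval -0.45 to 1.32). It was 0.09 without untreated replicate 2. Nearly all of the level came from the shorter of its 2 listed transcripts, and the longer one had 1.24 and 1.63 FPKM with formaldehyde and 1.74 and 1.32 FPKM untreated.

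The mitochondrial pair had the highest ratios of means among the members. HSPD1 (hg19 chr2:198351308-198364998, - strand), the HSP60 subunit of the chamber, had 196 and 169 FPKM with formaldehyde and 170 and 92.1 FPKM untreated. Its groups overlapped only by the narrow margin between formaldehyde replicate 2 and untreated replicate 1, and untreated replicate 2 was low. The means of 183 ± 19.3 FPKM with formaldehyde and 131 ± 54.9 FPKM untreated (SD, n = 2 each) had a ratio of 1.40, and the log2 fold change was 0.54 ± 0.35 (SE, 95% interval -0.37 to 1.45). Without untreated replicate 2 it was 0.10.

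HSPE1 (hg19 chr2:198364721-198368187, + strand), the HSP10 lid of that chamber, had 130 and 87.4 FPKM with formaldehyde and 102 and 58.7 FPKM untreated. Both replicate 2 libraries were below both replicate 1 libraries, so the groups overlapped. Means were 109 ± 30.1 FPKM with formaldehyde and 80.5 ± 30.8 FPKM untreated (SD, n = 2 each), and the log2 fold change of 0.46 ± 0.37 (SE, 95% interval -0.49 to 1.40) was 0.06 without untreated replicate 2. In the hg19 annotation behind the FPKM, 80 bases separate the starts of the main HSPD1 transcript and of HSPE1. The second HSPD1 transcript overlaps HSPE1 on the opposite strand, and it had at most 0.600 FPKM in any library. In GENCODE v29, 25.6% of the 51-nt words of HSPE1 also occur in HSPD1 on either strand. In other genes, HSPD1 included and the gene HSPE1-MOB4 left out, 43.1% occur. Counted the same way, the share was 24.0% for HSPD1, 17.5% for HSP90AA1, 14.4% for HSPA8 and 11.2% for HSPB1, each most with a processed pseudogene. Shares with HSPE1-MOB4 counted were not worked out. No strand setting is given in the sources used here, so reads of the overlap cannot be told apart.

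**Figure D2:**
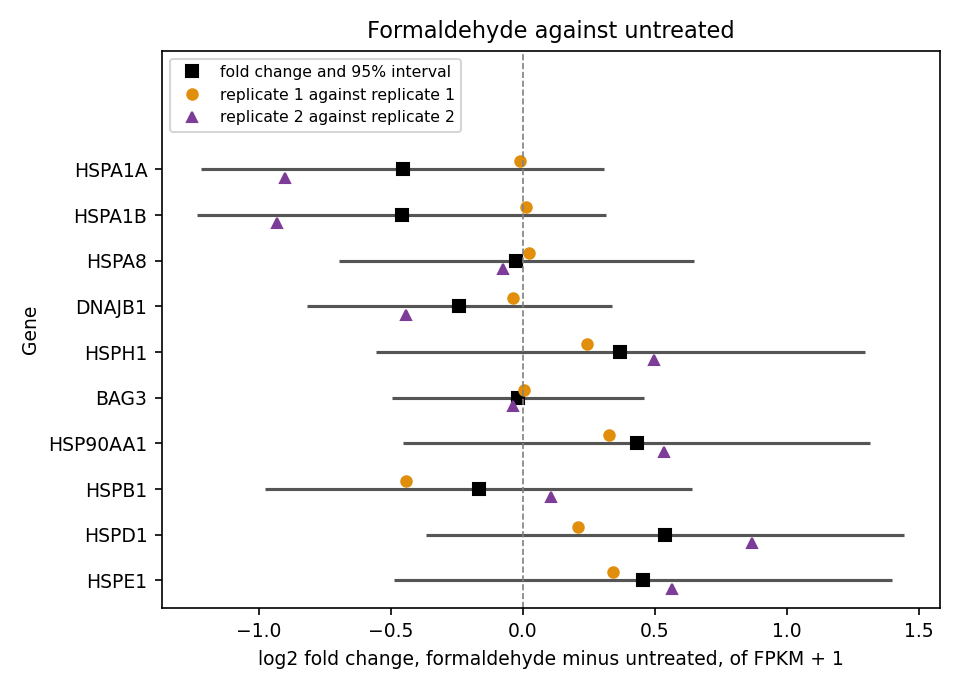
Log2 fold change of each member, formaldehyde over untreated, on log2(FPKM + 1), with its 95% limma interval and the difference within each replicate number as points. Every interval holds 0, and the replicate 2 difference is the farther from 0 for HSPA1A, at -0.90, and for HSPD1, at 0.87.

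Compared within replicate numbers, 4 of 10 members were higher with formaldehyde in both replicates, namely HSPH1, HSP90AA1, HSPD1 and HSPE1, against 31.2% of all genes tested. HSPA1A and DNAJB1 were lower in both, 2 of 10 against 22.6%. The other 4 differed in sign between replicates. For HSPA1A the log2 difference was -0.01 in replicate 1 and -0.90 in replicate 2, and for HSPD1 it was 0.21 and 0.87. HSP90AA1 had 0.33 and 0.54, and HSPE1 had 0.34 and 0.57. Untreated replicate 2 was the highest library for 4 members, HSPA1A, HSPA1B, DNAJB1 and BAG3, and the lowest for another 4, HSPH1, HSP90AA1, HSPD1 and HSPE1, against 22.7% and 40.8% of all genes. By replicate number, both replicate 2 libraries were below both replicate 1 libraries for 5 of 10 members, namely HSPA8, HSPH1, HSP90AA1, HSPD1 and HSPE1, against 29.6% of all genes, and above for 1, HSPB1, against 22.7%. A list of 9 nuclear or intronic RNAs summed to 788 and 520 FPKM with formaldehyde and 411 and 842 FPKM untreated, also highest in untreated replicate 2. NEAT1 made up most of this sum, with 485 and 335 FPKM with formaldehyde and 218 and 596 FPKM untreated. Of the 6 tested genes of the list, untreated replicate 2 was the highest library for 3 and the lowest for 1, GAS5. The part of the difference in this sum that is in the member values was not tested.

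**Figure D3:**
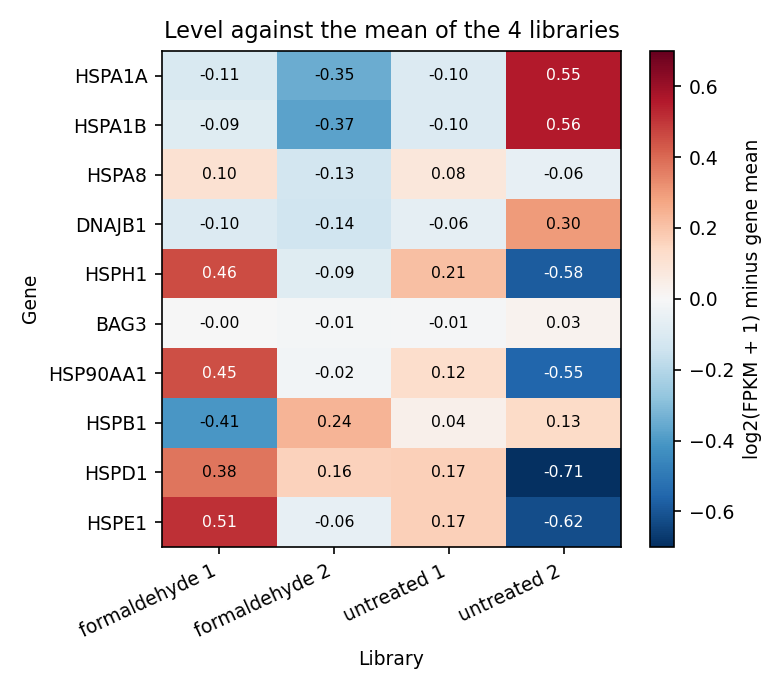
Heat map of log2(FPKM + 1) of each member minus its mean over the 4 libraries, with formaldehyde libraries left of untreated libraries. Untreated replicate 2 is above the mean for HSPA1A, HSPA1B and DNAJB1 and below it for HSPD1, HSPE1, HSP90AA1 and HSPH1.

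By class, the median log2 fold change was -0.17 over the 7 inducible members, 2 of them higher and 5 lower. It was 0.46 over the 3 constitutive or mitochondrial members, 2 of them higher and 1 lower. The 1 lower was HSPA8, the constitutive cytosolic member, at -0.03, and the 2 higher were the mitochondrial HSPD1 and HSPE1. The median of this class is the value of HSPE1 and does not describe HSPA8. Without untreated replicate 2 the constitutive or mitochondrial median was 0.060. Over all genes tested the median was 0.03, with the 10th percentile at -0.31 and the 90th at 0.37. The inducible class was itself mixed, since HSPH1 and HSP90AA1 lay above 0 and the HSP70 copies and DNAJB1 below. Summed, the 10 members made up 0.425% and 0.418% of all FPKM with formaldehyde and 0.443% and 0.423% untreated, a total of 2292 and 2150 FPKM with formaldehyde and 2268 and 2093 FPKM untreated.

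The members spanned a wide range of levels per length. Over the 4 libraries HSPA8 averaged 726 FPKM, ahead of HSPB1 with 524 FPKM and HSP90AA1 with 331 FPKM, and HSPA8 did not overlap HSPB1 in range whereas HSPB1 overlapped HSP90AA1. Below them, without overlap, came 5 genes whose neighbours overlapped, HSPD1 with 157 FPKM, HSPA1A with 108, HSPA1B with 101, HSPE1 with 94.6 and DNAJB1 with 79.4 FPKM. HSPH1 with 44.3 FPKM and BAG3 with 36.1 FPKM came last, below DNAJB1 without overlap, and overlapped each other. This order of means held in none of the 4 libraries for the middle group: HSPE1 ranked ahead of HSPA1A and HSPA1B in both formaldehyde libraries and untreated replicate 1, and in untreated replicate 2 HSPA1A, HSPA1B and DNAJB1 ranked ahead of HSPD1 and HSPE1.

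Inducible forms were set against constitutive partners as ratios of FPKM. The summed HSPA1A and HSPA1B level was 0.243 and 0.238 of the HSPA8 level with formaldehyde and 0.247 and 0.429 untreated. Untreated replicate 2 was high, and the other libraries were alike. The difference in mean log2 ratio was -0.44 (exact permutation p = 0.333, two-sided, the smallest possible here), and -0.04 without untreated replicate 2.

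The ratio of HSP90AA1 to HSP90AB1, its constitutive counterpart, was 0.882 and 0.713 with formaldehyde and 0.880 and 0.712 untreated. It followed the replicate number rather than the treatment, and the log2 difference was 0.0021 (exact permutation p = 0.667). HSP90AB1 itself had 497 and 444 FPKM with formaldehyde and 397 and 306 FPKM untreated, groups that did not overlap. HSPH1 over HSPA4, a constitutive HSP110 relative, was 0.635 and 0.459 with formaldehyde and 0.538 and 0.501 untreated, and HSPD1 over HSPE1 was 1.51 and 1.93 with formaldehyde and 1.66 and 1.57 untreated. Both ratios overlapped between groups, each with an exact permutation p of 1. The 4 ratios were not adjusted for number, since the smallest p allowed is above the threshold.

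**Figure D4:**
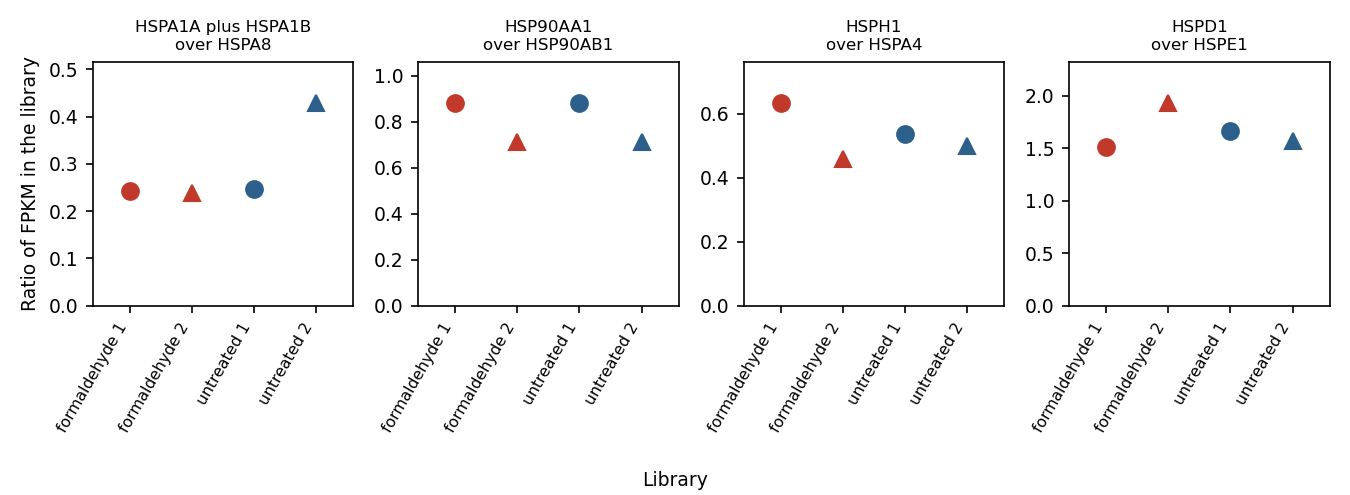
Ratios of inducible to constitutive forms, and of HSPD1 to HSPE1, in each library, with formaldehyde libraries left of untreated libraries. The HSP70 ratio is 0.429 in untreated replicate 2 and between 0.238 and 0.247 in the other libraries, while the HSP90 ratio is alike within each replicate number.

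The factors that switch these genes on were read from the same libraries. HSF1 had 45.7 and 47.1 FPKM with formaldehyde and 37.2 and 36.0 FPKM untreated. Both formaldehyde libraries were above both untreated libraries, as for 16.2% of all genes tested. The log2 fold change of HSF1 was 0.33 ± 0.19 (SE, 95% interval -0.15 to 0.82). HSF1 did not pass the threshold (adjusted p = 0.9999 in limma with Benjamini-Hochberg adjustment). HSF2, a related factor, had 10.7 and 9.50 FPKM with formaldehyde and 13.7 and 9.11 FPKM untreated, and its groups overlapped.

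Around the members, 94 other chaperone genes in 8 lists were examined, of which 83 were tested. In limma, 0 of 83 passed the adjusted threshold in either direction, against 0.0806% of all genes tested higher and 0.0725% lower. At an unadjusted p under 0.05 in limma, 2 of 83 were higher, HSPA9 and PFDN2, and 0 lower. Over all genes tested these shares were 1.93% higher and 0.838% lower. By the sign of the log2 fold change, as in the counts that follow, 69 were higher and 14 lower with formaldehyde, with a median log2 fold change of 0.21, against 55.1% of all genes higher and a median of 0.03. With each library scaled to an equal FPKM sum, 60 were higher and 23 lower (72.3% higher, against 45.1% of all genes). Both formaldehyde libraries were above both untreated libraries for 27 of the 83, against 16.2% of all genes, and below for 5, against 10.7%. Untreated replicate 2 was the lowest library for 63 of the 83, against 40.8% of all genes, and without it 47 of 83 (56.6%) were higher, against 47.3% of all genes, with a median of 0.03.

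Genes of mitochondrial folding, drawn from different lists, were among the named ones with higher values. Cytosolic genes named by the same rule, such as PFDN2 and FKBP4 below, were also higher. HSPA9, the mitochondrial HSP70, had 168 and 177 FPKM with formaldehyde and 123 and 99.9 FPKM untreated. The groups did not overlap, and the log2 fold change was 0.63 ± 0.22 (SE; adjusted p = 0.9999 in limma with Benjamini-Hochberg adjustment). GRPEL1, its exchange factor, had 36.9 and 28.5 FPKM with formaldehyde against 23.9 and 18.02 FPKM untreated, and DNAJA3, a mitochondrial J-domain protein, had 36.2 and 29.9 FPKM with formaldehyde against 25.1 and 20.9 FPKM untreated. TRAP1, the mitochondrial HSP90, had 70.0 and 86.4 FPKM with formaldehyde against 58.6 and 60.9 FPKM untreated. In these genes every formaldehyde library was above every untreated library, but they were named for a large moderated t, which favours such genes. HSCB, a J-domain protein of iron-sulfur cluster assembly named by the same rule, had 14.7 and 11.4 FPKM with formaldehyde and 12.5 and 6.21 FPKM untreated, and its groups overlapped. Of the 12 other mitochondrial chaperones and proteases tested, a list without HSPA9 and DNAJA3, 10 were higher, against 55.1% of all genes. The 2 lower were CLPX, at -0.02, and SPG7, at -0.01. In this list 0 were called by limma, and the median was 0.16. Both formaldehyde libraries were above both untreated libraries for 3, against 16.2% of all genes. Untreated replicate 2 was the lowest library for 8 of the 12, and without it 9 were higher and 3 lower, with a median of 0.07.

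In the cytosol, all 14 tested subunits of TRiC, the ring that folds actin and tubulin, and of its partner prefoldin had log2 fold changes above 0, with a median of 0.28 and 0 called. Untreated replicate 2 was the lowest library for 13 of the 14, and without it 5 were higher and 9 lower, with a median of -0.03. PFDN2 had 331 and 385 FPKM with formaldehyde and 223 and 237 FPKM untreated (log2 fold change 0.63 ± 0.23, SE). HSP90 and its cochaperones had 15 of 16 higher, 0 called, and a median of 0.29, with untreated replicate 2 the lowest library for 13 and 13 of 16 higher without it (median 0.20). FKBP4, a cochaperone of steroid receptors, had 67.3 and 76.5 FPKM with formaldehyde and 53.8 and 49.99 FPKM untreated. The lists that follow were not limited to the cytosol. All 9 exchange and ubiquitin cochaperones of HSP70 had a log2 fold change above 0 (median 0.21, 0 called), though for BAG4 it was 0.0039 with a ratio of mean FPKM of 0.979. Of 6 other HSP70 and HSP110 genes, the mitochondrial HSPA9 included, 5 were above 0 (median 0.31, 0 called), among them HSPA14 with 0.020 and a ratio of 0.983. Without untreated replicate 2 these counts were 6 of 9 and 3 of 6. The 19 J-domain cochaperones, the mitochondrial DNAJA3 included, split into 12 higher and 7 lower (median 0.07, 0 called). They split into 7 higher and 12 lower without untreated replicate 2 (median -0.14). The 5 heat shock factors and regulators split into 3 and 2 (median 0.01, 0 called), the third being HSBP1 with a log2 fold change of 0.012 and a ratio of mean FPKM of 0.982. Of the 9 other small heat shock proteins, 2 were tested, and CRYAB had 6.06 and 4.62 FPKM with formaldehyde and 5.13 and 10.1 FPKM untreated.

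**Figure D5:**
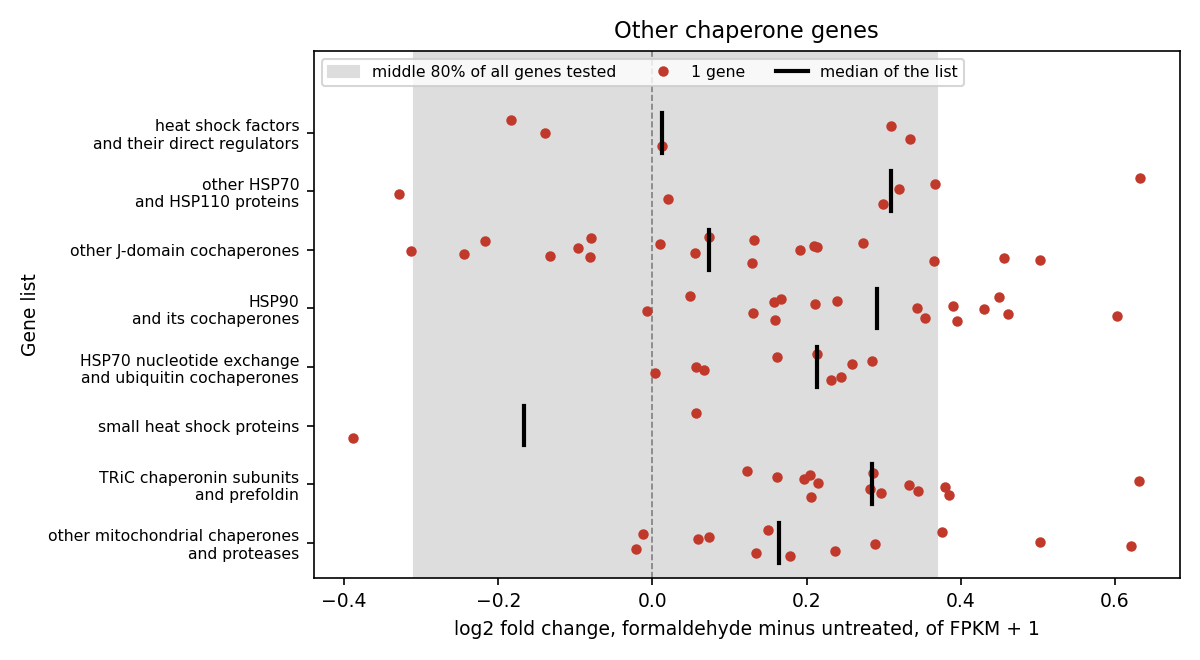
Log2 fold change, formaldehyde over untreated, of the tested genes of each list of other chaperones on log2(FPKM + 1), with 1 point a gene, a black bar at the median of the list and grey over the middle 80% of all genes tested. The 14 TRiC and prefoldin genes all lie above 0, though 9 lay below 0 without untreated replicate 2, and the J-domain genes lie on both sides.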

How the data were processed

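Per the labels, Trizol was used to extract total RNA for the 4 BEAS-2B libraries, and an Illumina HiSeq instrument to sequence them. Builds hg19 and GRCh37 and the tools Cufflinks 2.0.2, STAR 2.5.2 and FastQC 0.10.0 are listed in the submitters' processing notes. Strand setting and handling of multi-mapped reads were not given in the sources used here. Per the attributes of the deposited transcript annotations, the authors estimated FPKM with interval bounds and coverage, and depth was recovered from these. No count test was run.

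FPKM were summed over the transcripts of each of 23004 gene names, and 894 of 40255 transcripts, which carry no gene name, were left out. Genes with a mean of at least 1 FPKM (12407) were compared in limma 3.58.1 (R 4.3.3) after taking log2(FPKM + 1) (eBayes with a mean trend, two-sided, no covariate), with Benjamini-Hochberg adjustment and a threshold of 0.05. Such fold changes understate the change of low genes. Ratios were compared by exact permutation tests.

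The members and the lists were chosen with earlier results of these data known. Named genes were all members, HSP90AB1, HSPA4, HSF1, HSF2 and up to 3 genes of each list with the largest absolute moderated t, not all of which are named in the text. Alternatives covered the pseudocount, the filter, 3 scalings, transcript length, the highest transcript, other eBayes settings, the replicate number as a block and each library left out. Promoters were read with Python 3.11.15 and Biopython 1.88 from RefSeq GRCh38.p14, whose coordinates are not those of the files, and shared words from GENCODE v29. Figures were drawn with matplotlib 3.10.9.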

Additional observations from a re-analysis of the deposited data

How the results depend on the processing

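No member passed the threshold in limma under any alternative run (15, or 16 for HSPA1A and HSPE1), and HSPA1A, HSPA1B, DNAJB1, BAG3, HSP90AA1, HSPD1 and HSPE1 kept their direction under all of them. The log2 fold change ranged from -0.78 to -0.13 for HSPA1A, from -0.79 to -0.13 for HSPA1B and from 0.10 to 0.98 for HSPD1. With a library left out, the sign turned for HSPA8 (-0.14 to 0.092; 0.043 without untreated replicate 1 and 0.092 without formaldehyde replicate 2), for HSPH1 (-0.028 to 0.77; negative without untreated replicate 2) and for HSPB1 (-0.49 to 0.16; positive without formaldehyde replicate 1). Among other named genes it turned for HSF2 (-0.41 to 0.13; positive without untreated replicate 1), HSPA4 (-0.033 to 0.67) and CRYAB (-0.82 to 0.039), both without untreated replicate 2. HSPB11, listed with the small heat shock proteins, had -0.0093 with equal FPKM sums, -0.031 with quantile scaling and -0.091 to 0.20 with a library left out, negative without untreated replicate 2 (-0.040) or formaldehyde replicate 2. The log2 ratio difference of HSP90AA1 over HSP90AB1 was -0.026 with quantile scaling and -0.15 to 0.16 with a library left out, negative without untreated replicate 2 or formaldehyde replicate 1. For HSPH1 over HSPA4 it was -0.18 to 0.29, negative without formaldehyde replicate 1, and for HSPD1 over HSPE1 -0.096 to 0.26, negative without formaldehyde replicate 2. The cause of these turns was not tested.

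The median of the inducible members was -0.29 with quantile scaling and -0.22 to -0.022 with a library left out, and that of the constitutive or mitochondrial members was 0.060 to 0.85 with a library left out, lowest without untreated replicate 2. The median of the other chaperone genes, under alternatives chosen after seeing the data, was 0.034 to 0.35 with a library left out. Over all genes tested, 10 were called higher and 9 lower. Without the filter both counts were 0, with transcripts of at least 300 nt they were 1 and 0, and with a library left out 7 to 44 were called higher and 18 to 48 lower. With the replicate number as a block, 14 were called higher and 15 lower, 915 rather than 343 had an unadjusted p under 0.05, and 0 members were called. Deviations of same-numbered libraries correlated at 0.25 across 12407 genes, which are not independent, and with 2 pairs this does not establish a shared origin.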
